A study of Chlamydomonas reinhardtii with 9 samples.

Results

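The genes described here encode the machinery that moves membrane vesicles between the compartments of the green alga Chlamydomonas reinhardtii: RAB GTPases and their partners, SNARE proteins, clathrin coat proteins and subunits of the exocyst. They were chosen by their deposited one-line descriptions, which had to hold, as a whole word or phrase, rab, SNARE, coatomer, clathrin, vacuolar protein sorting or exocyst. Of 17301 transcripts, 48 held one of these terms. A flagellum-associated protein, FAP156, was left out by its name, and the R-SNARE VMPL1 and the exocyst subunit SEC8 were left out because their mean over the 9 times was under 1 RPKM (reads divided by transcript length and by library size). The remaining 45 genes are 11 RAB GTPases, 2 RAB partners, 27 SNAREs, 3 clathrin proteins and 2 exocyst subunits. No description held coatomer or vacuolar protein sorting, so the coat genes among the 45 are those of clathrin. Just under the minimum level stood SEC8 at 0.701 RPKM, with VMPL1 far below it at 0.0395 RPKM, and just above it stood SEC5 at 1.26 RPKM, SEC20 at 1.62 RPKM and TML1 at 1.72 RPKM.

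Cells of strain CC-4532, grown in light on acetate-containing TAP medium, were collected in the logarithmic phase, washed in TAP without Fe-EDTA and moved into fresh TAP without Fe-EDTA. RNA was sequenced from the washed cells at 0 h, then at 0.5, 1 and 2 h, at 4 and 8 h, and at 12, 24 and 48 h. The groups differ only in the time since that transfer, and each has 2 columns, called biological duplicates in the series design. A culture supplied with iron was not analysed here, so each change is relative to washed cells of 0 h, and the effects of lost iron, of washing, of fresh medium and of the age of the culture cannot be told apart.

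Vesicle transport joins the endoplasmic reticulum, the Golgi, the endosomes, the vacuole and the plasma membrane. RAB GTPases sit on a membrane in their GTP-bound form and recruit tethers and motors, and so give each compartment its identity. SNARE proteins on the vesicle and on its target wind into a bundle that fuses the membranes, and each bundle is made of a Qa, a Qb, a Qc and an R helix. Clathrin forms the coat of vesicles that bud from the trans-Golgi and the plasma membrane, and the exocyst tethers secretory vesicles at the plasma membrane. In land plants and algae the VAMP72 family of R-SNAREs serves traffic to the cell surface.

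Depth, worked out from the steps in the values, was 13.2 M to 33.4 M reads a library. A value of 0 allows up to 3 reads, which is 0.0394 to 0.0998 RPKM for a transcript of median length. Across the 12712 transcripts with a mean of at least 1 RPKM, the duplicates of a time correlated at 0.981 to 0.989 on log2(RPKM + 1). Each time was tested against 0 h with limma on log2(RPKM + 1) over 13077 genes, and a gene is called where the adjusted p is below 0.05 and the change at least 2-fold. Adding 1 RPKM makes changes of weak genes look smaller than they are. The trafficking genes were not typical in level: their mean ran from 1.26 to 192 RPKM with a median of 26.0, against a median of 6.19 RPKM over all genes tested. All 45 passed the filter on low values. In bulk RNA of a culture, fewer cells expressing a gene and less RNA per cell cannot be told apart.

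Most trafficking genes were at a lower level at 2 and 4 h than at 0 h. At 24 and 48 h their median log2 change was near 0 (0.00 and 0.01), but relative to the median of all genes it was -0.33 and -0.16, against -0.63 at 2 h and -0.49 at 4 h. The summed level of the 45 genes was 1973 and 2296 RPKM in the 2 columns at 0 h, 1234 and 1253 RPKM at 2 h, and 1239 and 1237 RPKM at 4 h. At 48 h it was 2077 and 2229 RPKM, within the range of the 0 h columns. The columns of 2 h and 4 h all lay below both columns of 0 h and of 48 h.

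**Figure D1:**
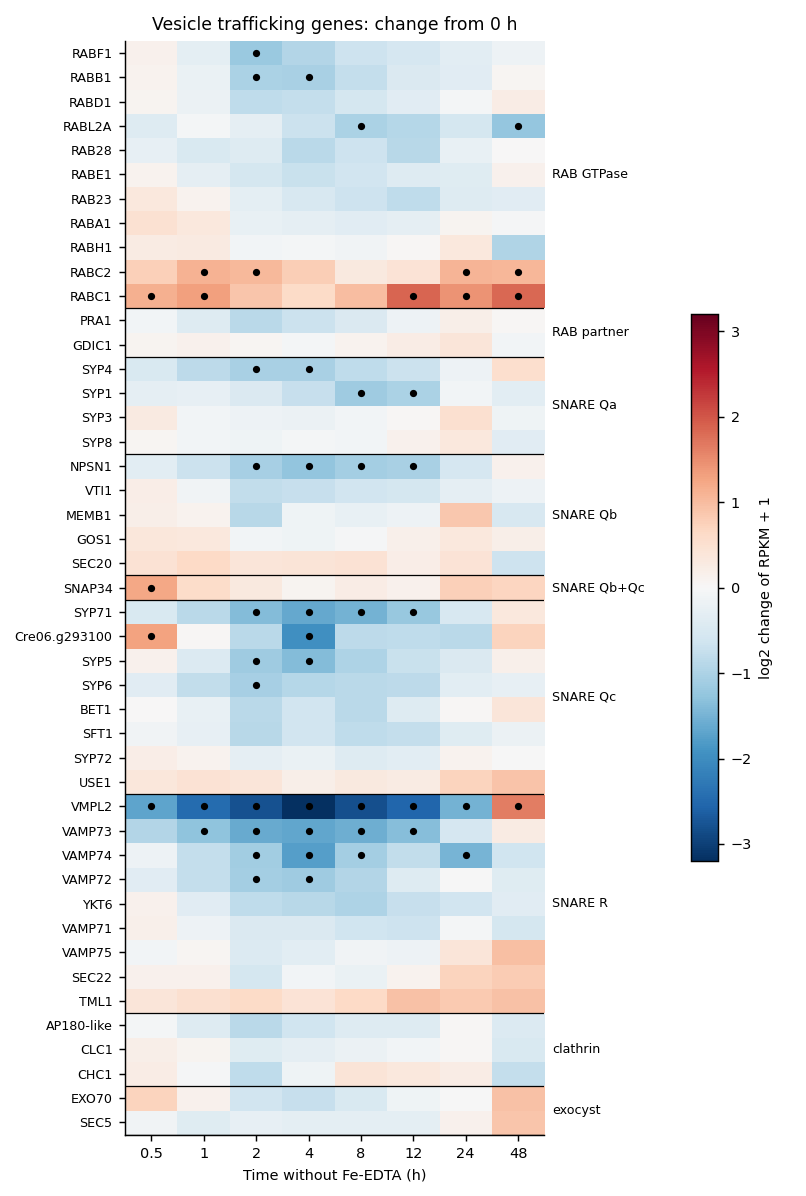
Heat map of the log2 change against 0 h of each trafficking gene (rows, grouped by role) at each time (columns, hours after transfer), with a dot where the gene was called. The dots for lower levels gather at 2 to 8 h and sit mostly among the SNAREs, with 11 lower genes at 2 h and 10 at 4 h, while RABC1 is higher at 5 times.

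At 2 h, 11 of the 45 were called lower, where 7.18% of all genes tested were, and 1 was called higher, where 9.44% of all genes were. At 4 h, 10 were called lower against a background of 11.8%, and 0 higher against 5.99%. The median log2 change of the 45 was -0.56 at 2 h and -0.61 at 4 h, while the median over all genes was 0.07 and -0.04. Both comparisons rest on the same 0 h columns and are not independent of each other.

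Before that window the counts were small. At 0.5 h, 3 genes were higher against a background of 5.64% and 1 was lower against 3.48%. At 1 h, 2 were higher against 8.38% and 2 lower against 4.95%. By this 2-fold rule the shares at 0.5 h and 1 h are near those of all genes. By adjusted p alone, 18 of the 45 were already lower at 1 h (19.9% of all genes) and 8 higher (41.3%). The median log2 change at 1 h was -0.12 in the 45 and 0.19 over all genes.

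After it the count of lower genes declined step by step. It was 7 at 8 h (background 13.9%), 5 at 12 h (background 18%), 2 at 24 h (background 6.39%) and 1 at 48 h (background 15.8%). Higher genes numbered 0 at 8 h (background 7.36%), 1 at 12 h (background 10.1%), 2 at 24 h (background 14.8%) and 3 at 48 h (background 18.4%).

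Without the 2-fold requirement, more of the 45 passed. Lower by adjusted p alone were 9 genes at 0.5 h (18.4% of all genes tested), 18 genes at 1 h (19.9%), 29 genes at 2 h (27.9%) and 28 genes at 4 h (35.4%). Later there were 27 at 8 h (41.9%), 25 genes at 12 h (41.7%), 15 genes at 24 h (19.9%) and 14 at 48 h (33.2%). Thus 29 of the 45 were lower at 2 h by a rule that called 27.9% of all genes lower.

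Higher by adjusted p alone were 11 genes at 0.5 h (36.3%), 8 genes at 1 h (41.3%), 5 genes at 2 h (36.3%) and 4 genes at 4 h (29.7%). Later there were 4 at 8 h (26.1%), 5 genes at 12 h (30.3%), 14 genes at 24 h (49.2%) and 14 at 48 h (43.6%). At 2 h, 5 of the 45 were thus higher by a rule that called 36.3% of all genes higher.

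The median of all genes itself moved on this scale, by 0.14 after 0.5 h and 0.19 after 1 h, by -0.16 and -0.14 at 8 h and 12 h, and by 0.29 and 0.14 at 24 h and 48 h. When every column was centred on its own median, 3 genes were higher (3.51% of all genes) and 2 lower (5.02%) at 0.5 h. For 1 h they were 1 higher (5.04%) and 4 lower (7.49%). At 2 h the centred counts were 0 higher (8.14%) and 11 lower (8.19%), and at 4 h they were 0 higher (8.4%) and 8 lower (9.24%). The count of lower genes at 2 h was thus 11 on both scales, but it was 7 without duplicate 2 of 0 h and 5 with a pseudocount of 5. With that column left out or that pseudocount, the share of all genes is not given here, so 7 and 5 lack a background.

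Later centred counts were smaller. At 8 h, 1 was higher (10.3%) and 3 were lower (9.97%), and at 12 h, 2 were higher (13.5%) and 3 lower (14.3%). At 24 h, 1 was higher (6.98%) and 3 were lower (10.9%), and at 48 h, 2 were higher (14.3%) and 2 lower (19.2%). The 7 lower genes at 8 h thus became 3.

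**Figure D2:**
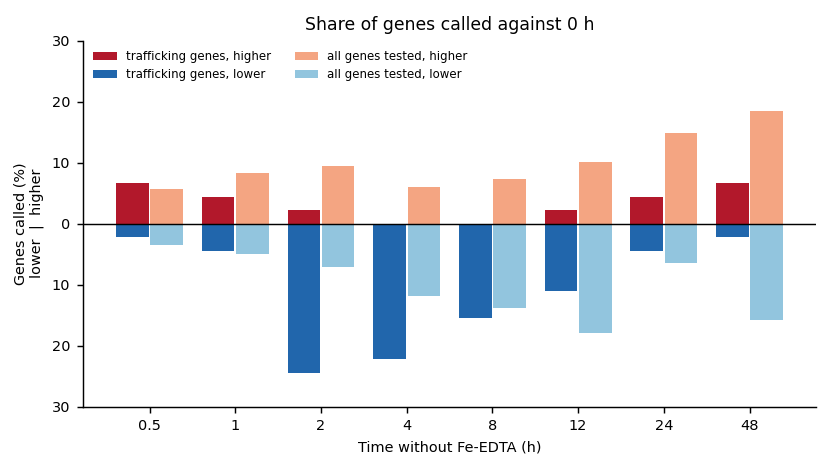
Percentage of the 45 trafficking genes and of all 13077 genes tested that were called higher or lower than 0 h (y axis) at each time (x axis, hours). At 2 h 11 of the 45 were lower against 7.18% of all genes, and at 48 h 3 were higher against 18.4%.

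Over the whole course, 17 of the 45 were called at 1 or more times, against 59.4% of all genes tested. Of these, 12 were called lower only, 3 higher only (RABC1, RABC2 and SNAP34) and 2 both ways (VMPL2 and Cre06.g293100), and 28 were never called. A test over all 9 times passed for all 45 at an adjusted p below 0.05, and for 98.6% of all genes, so it separates nothing. The lowest level fell at 2 h in 11 genes (24.4%) and at 4 h in 14 (31.1%), where 6.88% and 12.6% of all genes tested had theirs. The highest level fell at 48 h in 16 genes (35.6%) and at 0.5 h in 12 (26.7%), where 30.9% and 7.99% of all genes had theirs.

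Among the 11 RAB GTPases, RABF1, RABB1 and RABL2A fell and the C-type genes RABC1 and RABC2 rose. RABF1, of the RAB5 type that marks early endosomes, stood at 219 and 258 RPKM at 0 h, 94.6 and 112 RPKM at 2 h, and 205 and 220 RPKM at 48 h. Both 2 h columns were below both 0 h columns. Its log2 change at 2 h was -1.20 (SE 0.08, limma adjusted p = 9.5e-08). It was the time of its lowest level, and at 4 h the change was -0.95 and no longer 2-fold.

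RABB1, of the RAB2 type that works between the endoplasmic reticulum and the Golgi, stood at 199 and 186 RPKM at 0 h, 101 and 90.7 RPKM at 2 h, 99.4 and 89.2 RPKM at 4 h, and 213 and 189 RPKM at 48 h. Its log2 change was -1.01 at 2 h and -1.03 at 4 h (SE 0.08 for both). These calls lie at the 2-fold limit. Leaving out 1 column at a time moved the 2 h value between -1.04 and -0.97, and it dropped under 2-fold when duplicate 2 of 0 h or duplicate 1 of 2 h was left out. The 4 h call was lost on leaving out duplicate 2 of 0 h, at -0.99, and after median centring, at -0.90.

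RABD1, of the RAB1 type that acts in the step from the endoplasmic reticulum to the Golgi, had the highest mean of the 45, 192 RPKM. It stood at 189 and 266 RPKM at 0 h, 117 and 139 RPKM at 2 h, and 237 and 291 RPKM at 48 h, and was not called at any time (-0.81 at 2 h, SE 0.10). RABF1, RABB1 and RABD1 together make up most of the RAB sum, which was 944 RPKM at 0 h, 568 RPKM at 2 h and 911 RPKM at 48 h as means of the duplicates.

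The C-type RABs, RABC1 and RABC2, are described in the deposited table as similar to RAB18, which in animal cells is found on the endoplasmic reticulum and on lipid droplets. RABC1 stood at 2.53 and 2.81 RPKM at 0 h and at 7.50 and 6.77 RPKM after 0.5 h, and its columns at every later time were above both 0 h columns. It then read 7.77 and 8.37 RPKM at 1 h, 4.78 and 4.45 RPKM at 4 h, 13.3 and 11.6 RPKM at 12 h, and 15.0 and 9.76 RPKM at 48 h. The course thus has an early rise, a dip at 4 h and a later rise. The log2 change was 1.15 at 0.5 h (SE 0.14, limma adjusted p = 3.5e-05), 1.87 at 12 h (adjusted p = 9.7e-08) and 1.84 at 48 h (adjusted p = 8.9e-08). It was called higher at 0.5, 1, 12, 24 and 48 h, and no call was lost without a single column or after centring. With a pseudocount of 5 RPKM, which weighs low levels less, the calls at 12 h and 48 h remained.

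RABC2 stood at 2.02 and 1.99 RPKM at 0 h, 4.74 and 6.49 RPKM at 1 h, 5.53 and 4.93 RPKM at 2 h, 2.48 and 3.0 RPKM at 8 h, and 4.64 and 6.0 RPKM at 48 h. All of these later columns were above the 0 h columns. Its log2 change was 1.12 at 1 h (SE 0.14, limma adjusted p = 1.5e-05), and it was called higher at 1, 2, 24 and 48 h, near the 2-fold limit. After median centring none of these calls remained 2-fold (0.95 at 1 h), nor with a pseudocount of 5 RPKM. The 1 h value was 0.97 without duplicate 2 of 1 h, and the lowest values without 1 column were 0.91 at 2 h (lost on leaving out duplicate 2 of 0 h or else duplicate 1 of 2 h) and 0.95 at 48 h (lost on leaving out duplicate 2 of 0 h or else duplicate 2 of 48 h).

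RABL2A, described as distantly similar to a class of RAB-like proteins of mammals, was the gene called lower at 48 h. It stood at 64.0 and 48.7 RPKM at 0 h, 29.8 and 25 RPKM at 8 h, 41.7 and 34.0 RPKM at 24 h, and 29.6 and 18.1 RPKM at 48 h. The 48 h columns lie below both 0 h columns, with a log2 change of -1.23 (SE 0.12, limma adjusted p = 6.7e-07). The call at 8 h (-1.01) was lost on leaving out duplicate 1 of 0 h or of 8 h, where its size was down to -0.96, and after centring (-0.83).

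The other 6 RABs were not called at any time against 0 h. These were RABA1 and RABE1, of the types that act late in secretion, RABH1, of the RAB6 type of the Golgi, and RAB23, RAB28 and RABD1. RABH1 nevertheless dropped late, from 38.6 and 47.2 RPKM at 24 h to 16.8 and 16.7 RPKM at 48 h. That step was -1.30 (SE 0.11, limma adjusted p = 4.5e-07), where 16.1% of all genes were called lower between these times.

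**Figure D3:**
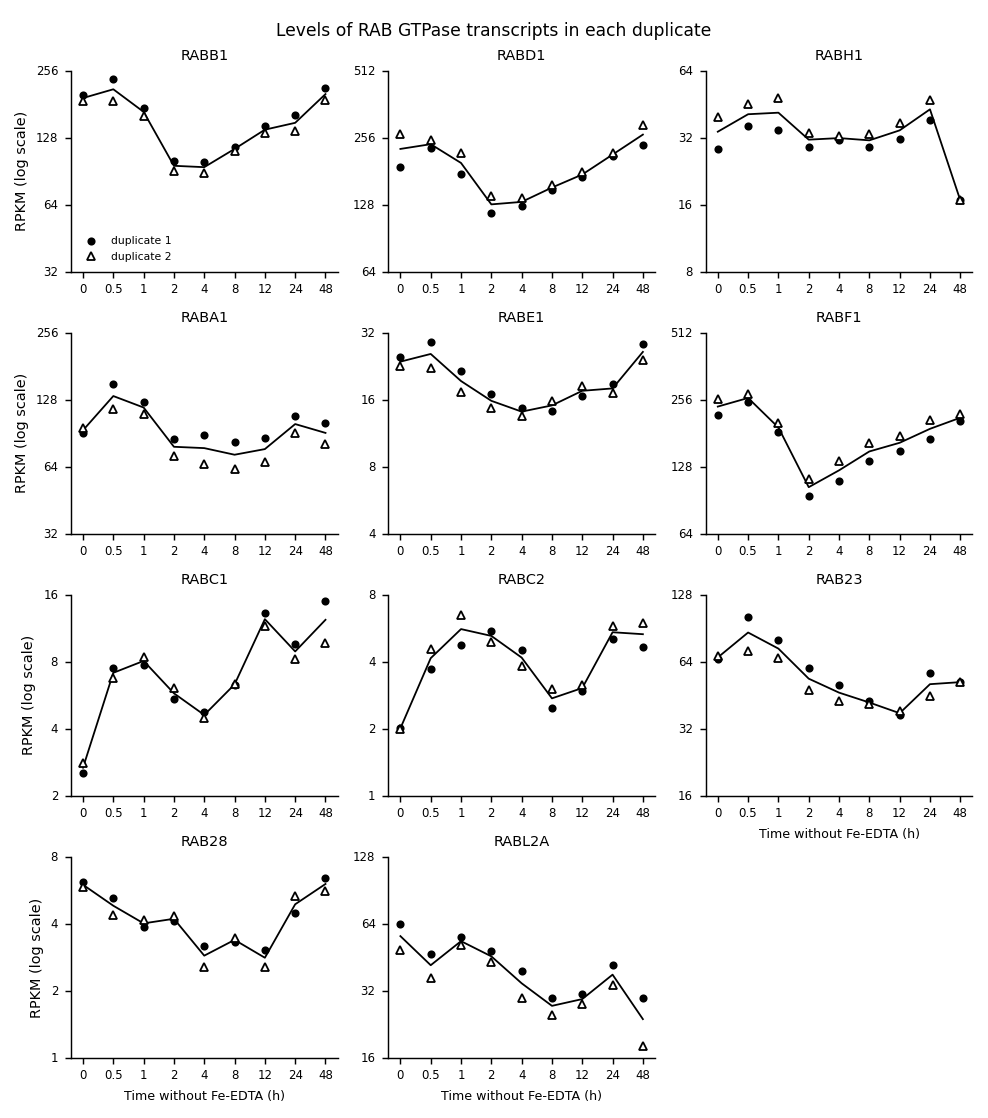
RPKM of the 11 RAB GTPases on a log axis (y) at each time (x, hours), with a point for each duplicate and a line through their mean. RABF1 and RABB1 dip at 2 to 4 h, RABF1 to 94.6 and 112 RPKM at 2 h, while RABC1 rises from 2.53 and 2.81 RPKM at 0 h to 13.3 and 11.6 RPKM at 12 h.

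Neither RAB partner was called. GDIC1, the GDP dissociation inhibitor that draws RABs off membranes, stayed between 71.6 and 114 RPKM over all 18 columns. PRA1, a prenylated RAB acceptor, which in yeast and animals helps to place RABs on membranes, stood at 77.6 and 113 RPKM at 0 h and 48.2 and 54.0 RPKM at 2 h. Its log2 change there was -0.86 (SE 0.10), under the 2-fold limit.

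The SNAREs supplied most of the calls. Of 27 SNAREs, 9 were lower at 2 h (7.18% of all genes) and 9 were lower at 4 h (11.8%). The number then went down to 6 at 8 h (13.9%), 5 SNAREs at 12 h (18%) and 2 SNAREs at 24 h (6.39%), and the counts at 12 and 24 h are near the shares of all genes. None of the 27 was lower by at least 2-fold at 48 h (15.8% of all genes), where VMPL2 was higher (18.4%). By adjusted p alone 8 were lower at 48 h, near the share of all genes (33.2%). Their summed level was 889 RPKM at 0 h, 457 RPKM at 2 h, 440 RPKM at 4 h and 973 RPKM at 48 h, as means of the duplicates.

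R-SNAREs are mostly carried by the vesicle. The R-SNARE VMPL2 had the largest called change of the 45, followed by the Qc-SNARE Cre06.g293100 (-1.95 at 4 h). VMPL2, Cre04.g214750, is described as carrying an R-SNARE domain distantly similar to VAMP4 and as not found in land plants. It stood at 14.7 and 18.9 RPKM at 0 h, 3.79 and 5.26 RPKM at 0.5 h, 2.01 and 2.41 RPKM at 1 h, 0.970 and 2.28 RPKM at 2 h, and 0.578 and 1.39 RPKM at 4 h. These last values rest on 29 and 66 reads. From there it rose through 1.06 and 2.03 RPKM at 8 h, 1.81 and 2.36 RPKM at 12 h and 4.37 and 6.14 RPKM at 24 h to 44.5 and 64.5 RPKM at 48 h. The mean at 48 h was thus 55.5-fold that at 4 h.

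VMPL2 was lower than at 0 h at every time from 0.5 to 24 h, without overlap of the columns, and higher at 48 h. The log2 change was -1.69 at 0.5 h (SE 0.13, limma adjusted p = 1.1e-06), -3.19 at 4 h (adjusted p = 4.9e-09) and 1.63 at 48 h (adjusted p = 7.8e-08). The step from 24 to 48 h was 3.14 (SE 0.13, limma adjusted p = 5.3e-10), where 7.43% of all genes were called higher between these times. No call against 0 h was lost without a single column, after centring or with a pseudocount of 0.1 or 5. The step from 12 to 24 h was also called (1.01), but it was 0.52 after centring and 0.53 with a pseudocount of 5, and it was lost as well on leaving out duplicate 2 of 12 h or else duplicate 1 of 24 h (down to 0.90). Its neighbour in the same family, VMPL1, lies below the minimum level, as given above. How the authors' counting divided reads between such copies is not given in the sources used here.

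The VAMP72 family has 4 genes, described as part of the traffic from the Golgi to the plasma membrane and endosomes. They lie in a pair of tandem arrays, with VAMP74 and VAMP71 pointing toward each other and VAMP73 and VAMP72 pointing away from each other. Their summed level was 285 RPKM at 0 h, 134 RPKM at 2 h, 118 RPKM at 4 h and 232 RPKM at 48 h. Whether reads were counted by strand is not given in the sources used here, so reads where genes that face each other overlap cannot be told apart, and likewise reads shared by near-identical copies.

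VAMP73 stood at 65.0 and 75.9 RPKM at 0 h, 34.8 and 37.5 RPKM at 0.5 h, 22.6 and 20.4 RPKM at 4 h, and 87.0 and 83.1 RPKM at 48 h. It was called lower at 1, 2, 4, 8 and 12 h, with a log2 change of -1.67 at 4 h (SE 0.10, limma adjusted p = 4.3e-08). Its divergent neighbour VAMP72 stood at 68.9 and 75.5 RPKM at 0 h, 33.3 and 31.4 RPKM at 4 h, and 74.1 and 70.2 RPKM at 24 h. It was called at 2 h (-1.08) and at 4 h (-1.14, SE 0.10, limma adjusted p = 9.3e-07). Both genes were lower in every column of 2 h and 4 h than in either column of 0 h, and at 24 h VAMP72 was near its starting level, when VAMP73 was at 49.9 and 46.2 RPKM. At 48 h VAMP72 was at 51 and 58.1 RPKM, again below both 0 h columns (-0.40, adjusted p = 0.0029, limma).

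VAMP74 varied more between duplicates. It stood at 74.4 and 107 RPKM at 0 h, 17.3 and 37.1 RPKM at 4 h, 31.3 and 84.7 RPKM at 12 h, and 24.8 and 38.6 RPKM at 24 h. The columns of 4 h and 24 h are below those of 0 h, and the columns of 12 h overlap them. The log2 change was -1.77 at 4 h (SE 0.31, limma adjusted p = 2.3e-04) and -1.5 at 24 h (adjusted p = 7.4e-04). Calls at 2 h (-1.10) and 8 h (-1.09) rested on single columns: the first was -0.70 without duplicate 2 of 2 h, and the second -0.91 without duplicate 1 of 8 h and also -0.91 after centring. VAMP71, the gene that faces it, was not called at any time, at 45.1 and 58.3 RPKM at 0 h, 39.3 and 34.4 RPKM at 4 h and 31 and 38.7 RPKM at 48 h. The difference between the courses of the 4 genes was not tested.

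The remaining R-SNAREs were not called. VAMP75 stood at 16.4 and 17.6 RPKM at 0 h and at 27.8 and 41.4 RPKM at 48 h, a log2 change of 0.96 (SE 0.11). YKT6, an R-SNARE that works at several membranes, stood at 32.1 and 54.4 RPKM at 0 h and 20.5 and 23.8 RPKM at 4 h. SEC22, an R-SNARE between the endoplasmic reticulum and the Golgi, was at 27.7 and 15.4 RPKM at 0 h and 14.9 and 12.5 RPKM at 2 h. TML1 resembles tomosyn, described as a regulator of SNARE assembly and not part of the fusing complex, and its log2 change was 0.94 at 48 h from 0.735 and 0.80 RPKM at 0 h.

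**Figure D4:**
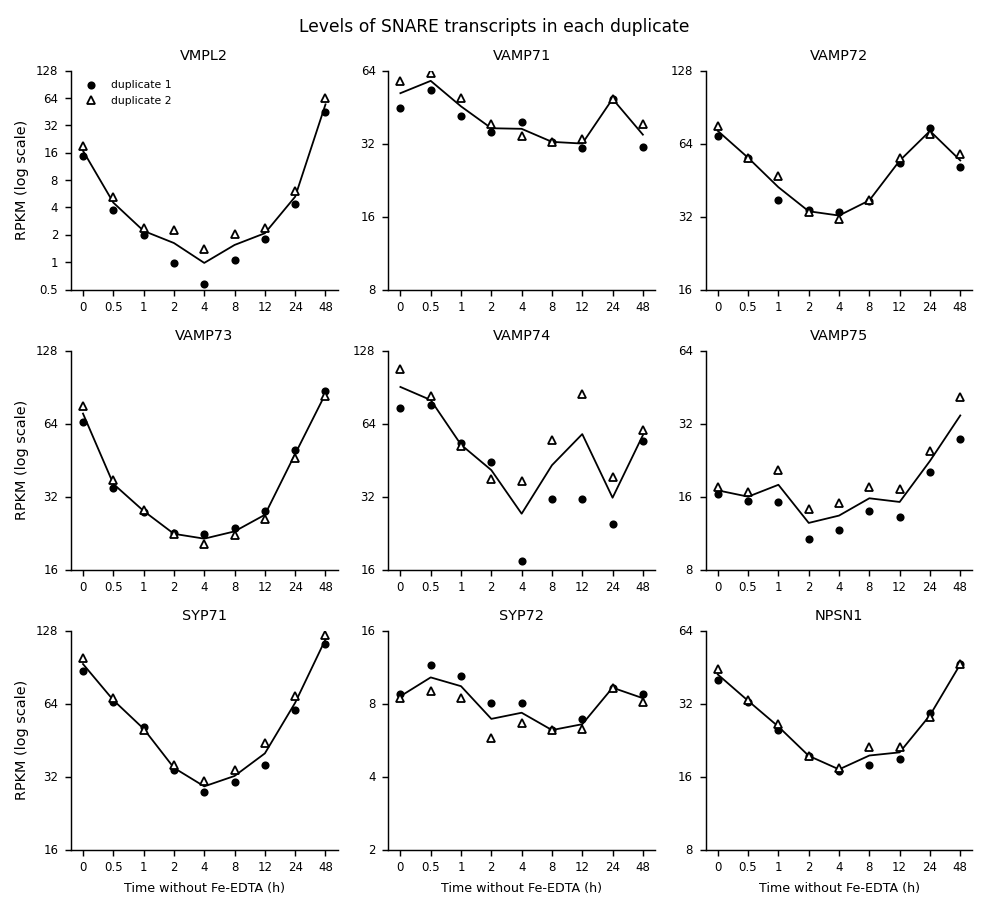
RPKM on a log axis (y) at each time (x, hours) for VMPL2, VAMP71 to VAMP75, SYP71, SYP72 and NPSN1, with a point for each duplicate and a line through their mean. VMPL2 is at 0.578 and 1.39 RPKM at 4 h and at 44.5 and 64.5 RPKM at 48 h, VAMP73 and SYP71 dip and return, and SYP72 stays between 5.78 and 11.5 RPKM.

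Among the 8 Qc-SNAREs, 4 were called lower. SYP71, of a family tied to the endosome and, in land plants, to the plasma membrane and cell plate, stood at 87.8 and 99.1 RPKM at 0 h, 34.0 and 35.7 RPKM at 2 h, 27.7 and 30.7 RPKM at 4 h, and 114 and 123 RPKM at 48 h. The columns from 0.5 to 24 h all lay below those of 0 h. It was called lower at 2, 4, 8 and 12 h, with a log2 change of -1.64 at 4 h (SE 0.09, limma adjusted p = 2.5e-08). No call was lost without a single column or after centring.

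SYP72, its tandem copy, was at a lower level and was not called, at 8.77 and 8.44 RPKM at 0 h and 8.06 and 6.65 RPKM at 4 h. SYP5, an endosomal and vacuolar Qc-SNARE, stood at 23.0 and 35.9 RPKM at 0 h and 9.22 and 11.7 RPKM at 4 h, a log2 change of -1.38 (SE 0.10, limma adjusted p = 2.3e-07). Its 2 h call (-1.13) was lost on leaving out duplicate 2 of 0 h, at -0.99. SYP6, of the trans-Golgi and endosome, was called at 2 h only (33.0 and 45.2 RPKM at 0 h, 17.1 and 18.8 RPKM at 2 h, log2 change -1.07), and that call was lost on leaving out duplicate 2 of 0 h, at -0.95.

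Cre06.g293100 is described as holding a SYP6-like SNARE domain in a protein of different structure, specific to Chlamydomonas. It stood at 19.8 and 45.9 RPKM at 0 h, 76.0 and 73.6 RPKM at 0.5 h, 28.9 and 32.8 RPKM at 1 h, 4.19 and 11.5 RPKM at 4 h, and 38 and 65.7 RPKM at 48 h. It was among the most variable of the 45 between duplicates, with 8.31 and 33.1 RPKM at 12 h. Its log2 change was -1.95 at 4 h (SE 0.37, limma adjusted p = 5.0e-04), a call that held without any single column. The rise at 0.5 h was 1.28 (adjusted p = 0.011). That call was lost on leaving out duplicate 1 of 0 h or else duplicate 1 of 0.5 h, where the value ran down to 0.84, and without the duplicate block.

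The Qa-SNAREs, which anchor the bundle on the target membrane, were led by SYP4, of the trans-Golgi, and SYP1, of the plasma membrane. SYP4 stood at 31.4 and 38.6 RPKM at 0 h, 15.8 and 17.0 RPKM at 4 h, and 45.9 and 56.4 RPKM at 48 h. It was called lower at 2 h (-1.04) and 4 h (-1.04), and both calls were lost on leaving out duplicate 2 of 0 h, at -0.92 and -0.93, and the 4 h call after centring as well (-0.92). SYP1 reached its lowest level later, with 16.6 and 17.6 RPKM at 0 h and 7.82 and 6.64 RPKM at 8 h. Its log2 change was -1.14 at 8 h (SE 0.10, limma adjusted p = 4.4e-07) and -1.01 at 12 h. The 12 h call was lost on leaving out duplicate 2 of 0 h or else duplicate 1 of 12 h (down to -0.91), and both were under 2-fold after centring (-0.97 and -0.84). SYP3, of the Golgi, and SYP8, of the endoplasmic reticulum, were not called.

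Among the 5 Qb-SNAREs, NPSN1 was called. This family acts at the plasma membrane in plants. NPSN1 stood at 40.1 and 44.5 RPKM at 0 h, 19.5 and 19.6 RPKM at 2 h, 17.0 and 17.4 RPKM at 4 h, and 46.6 and 46.6 RPKM at 48 h, with every column from 0.5 to 24 h below those of 0 h. Its log2 change was -1.25 at 4 h (SE 0.09, limma adjusted p = 1.6e-07). The calls at 8 h (-1.08) and 12 h (-1.03) were lost after centring (-0.90 and -0.87). Without duplicate 1 of 8 h the first was -0.98, and without duplicate 2 of 0 h or without duplicate 1 of 12 h the second was down to -0.98. VTI1, an endosomal Qb-SNARE, was at 41.7 and 49.7 RPKM at 0 h and 25.5 and 26.5 RPKM at 2 h and was not called.

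SNAP34, Cre02.g100250, carries a Qb and a Qc helix in a single protein, and rose early. It stood at 5.28 and 8.46 RPKM at 0 h, 17.0 and 17.3 RPKM at 0.5 h, 9.80 and 11.2 RPKM at 1 h and 6.48 and 7.85 RPKM at 4 h. The 0.5 h and 1 h columns lie above those of 0 h and the 4 h columns overlap them. The log2 change at 0.5 h was 1.24 (SE 0.14, limma adjusted p = 1.3e-05), and it was not called at a later time. Its columns at 24 h (11.7 and 12.5 RPKM) and 48 h (11.1 and 11.6 RPKM) again lay above those of 0 h. The changes there, 0.77 and 0.68, were under the 2-fold limit. With a pseudocount of 5 RPKM the 0.5 h call of SNAP34 was lost, as were those of VAMP72 and SYP5 at 2 h, of SYP6, SYP4 and SYP1 at every time they had one, and of NPSN1 at 2, 8 and 12 h. Among the RABs this setting also ended the calls of RABB1 and that of RABL2A at 8 h.

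By the membranes they are known to serve in other species, 9 of the SNAREs act between the endoplasmic reticulum and the Golgi, 15 at the trans-Golgi, endosome, vacuole or plasma membrane, and 3 were put in neither group. This grouping was made after the values were known, so it is a description without a test. YKT6, which works at several membranes, was counted with the 15. Of the 15, 8 were lower at 2 h (7.18% of all genes) and 7 at 4 h (11.8%). Then 5 were lower at 8 h (13.9%) and 4 at 12 h (18%). The median log2 change of the 15 was -1.04 at 2 h and -0.91 at 4 h, and it was back to -0.02 by 48 h. Of the 9, which were SYP3, SYP8, MEMB1, GOS1, SEC20, BET1, SFT1, USE1 and SEC22, none was called against 0 h at any of the 8 times on the log2(RPKM + 1) scale. By adjusted p alone 4 of the 9 were lower at 2 h (27.9% of all genes) and 7 higher at 24 h. Their median log2 change was -0.17 at 2 h and -0.13 at 4 h, and it was 0.43 at 24 h, when the median over all genes was 0.29 and 49.2% of all genes were higher by adjusted p alone. After centring that 24 h median was 0.10. After centring, 8 and 6 of the 15 were lower at 2 h (8.19% of all genes) and 4 h (9.24%), and 0 of the 9. The RABs did not divide in this way at 2 h. Those between the endoplasmic reticulum and the Golgi changed by -1.01 (RABB1), -0.81 (RABD1) and -0.10 (RABH1). Those of later membranes changed by -1.20 (RABF1), -0.56 (RABE1) and -0.25 (RABA1).

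Several of these 9 are weakly expressed, where log2(RPKM + 1) leaves less room for a change. Before 1 RPKM was added, some of their mean levels differed more than 2-fold from 0 h. MEMB1 went from 3.71 to 1.55 RPKM at 2 h, SEC20 from 1.12 to 0.34 RPKM at 48 h, and USE1 from 2.01 to 4.87 RPKM at 48 h. The absence of calls among the 9 thus depends in part on the scale. MEMB1 stood at 4.00 and 3.42 RPKM at 0 h, 1.46 and 1.64 RPKM at 2 h, 8.42 and 6.73 RPKM at 24 h, and 2.73 and 1.86 RPKM at 48 h. It was called in the steps from 12 to 24 h (1.02, where 14.6% of all genes were called higher) and from 24 to 48 h (-1.39, limma adjusted p = 2.1e-06). The first of these was 0.53 after centring and 0.61 with a pseudocount of 5, and it was lost on leaving out duplicate 2 of 12 h or else duplicate 1 of 24 h. The second was lost with a pseudocount of 5 (-0.79) and kept after centring (-1.23). SEC20 dropped in the last step too, from 1.86 and 1.83 RPKM to 0.297 and 0.383 RPKM (-1.09, limma adjusted p = 6.3e-06). That call was lost after centring (-0.93), with a pseudocount of 5 (-0.36), and on leaving out duplicate 1 of 24 h or else duplicate 2 of 48 h. BET1 and SFT1, at higher levels, stood at 77.9 and 67.6 RPKM and at 41.7 and 37.5 RPKM at 0 h, against 40.1 and 38.7 RPKM and 21.8 and 19.9 RPKM at 2 h. For both genes the 2 h columns lie below the 0 h columns.

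None of the 3 clathrin genes was called against 0 h, and all 3 were lower by adjusted p alone at 2 h, as 27.9% of all genes were. The heavy chain CHC1, the scaffold of the coat, stood at 26.6 and 35.5 RPKM at 0 h, 15.4 and 18.8 RPKM at 2 h, 40.0 and 41.9 RPKM at 8 h, 36.7 and 36.4 RPKM at 24 h and 17.8 and 17.3 RPKM at 48 h. It dipped at 2 h and again at 48 h, below both 0 h columns. The log2 change was -0.82 at 2 h (SE 0.12) and -0.77 at 48 h, and the step from 24 to 48 h was -1.02 (limma adjusted p = 8.0e-06). That step call lies at the 2-fold limit and was lost after centring (-0.86), with a pseudocount of 5 (-0.88), and on leaving out duplicate 1 of 24 h or else duplicate 2 of 48 h. The light chain CLC1 stood at 54.4 and 82.4 RPKM at 0 h and 39.7 and 57.6 RPKM at 48 h, which overlap, although the fit gave -0.48 (adjusted p = 0.0097). Cre02.g128950, similar to the assembly factor AP180, stood at 15.9 and 18.5 RPKM at 0 h and 8.53 and 9.64 RPKM at 2 h, and at 48 h it was at 12.2 and 12.8 RPKM (-0.43). At 48 h all 3 clathrin genes were thus lower by adjusted p alone, as 33.2% of all genes were, with a median of -0.48.

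Both exocyst subunits were higher at 48 h than at 0 h by adjusted p alone, as 43.6% of all genes were. On the log2(RPKM + 1) scale both stayed under the 2-fold limit. EXO70, which binds the plasma membrane in yeast, stood at 6.94 and 9.01 RPKM at 0 h, 15.4 and 11.8 RPKM at 0.5 h, 4.43 and 4.27 RPKM at 4 h and 16.7 and 15.7 RPKM at 48 h. Its log2 change went from 0.70 after 0.5 h to -0.74 at 4 h and to 0.95 at 48 h (SE 0.14, limma adjusted p = 3.2e-05). SEC5 stood at 0.664 and 2.04 RPKM at 0 h and at 2.22 and 4.34 RPKM at 48 h. Its duplicates at 0 h differed about as much as its change of 0.88.

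Between neighbouring times the calls were few. From 0.5 to 1 h, 1 of the 45 was lower (0.39% of all genes) and 0 higher (0.13%), and from 2 to 4 h again 1 was lower (1.06%) and 0 higher (0.291%). From 4 to 8 h, 1 was higher (1.67%) and 0 lower (4.63%). All of these were Cre06.g293100, whose duplicates vary, and each of the 3 calls was lost without the duplicate block.

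From 1 to 2 h and from 8 to 12 h, no gene was called by limma in either direction, with 0.818% and 2.6% of all genes lower and 0.115% and 0.933% higher. By adjusted p alone 25 of the 45 were lower from 1 to 2 h, where 14.7% of all genes were, and 6 were higher from 8 to 12 h, where 14% were. From 12 to 24 h, 2 of the 45 were higher (14.6% of all genes), MEMB1 and VMPL2, and 0 lower (2.24%), and by adjusted p alone 30 were higher, where 58.7% of all genes were. The median change in that step was 0.39 in the 45 and 0.40 over all genes. From 24 to 48 h, 4 were lower (16.1%), RABH1, SEC20, CHC1 and MEMB1, and 2 higher (7.43%), VMPL2 and Cre06.g293100.

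Other trafficking genes outside the 45 were listed by name and description: COPII coats, ARF GTPases, TRAPP and COG tethers, dynamins, adaptors and ESCRT subunits, 77 genes of which 75 were tested. At 2 h, 8 of the 75 were lower (7.18% of all genes) and 2 higher (9.44%). At 4 h the list had 12 lower genes (11.8%) and 1 higher gene (5.99%), and by 24 h it had 1 lower gene (6.39%) and 18 higher genes (14.8%). After centring the 24 h counts were 4 lower (10.9%) and 3 higher (6.98%). ESCRT subunits, which sort membrane proteins into multivesicular bodies, had 6 of 13 lower at 2 h and 6 at 4 h, the same counts after centring. Their median log2 change was -0.79 and -0.99. The 13 include VPS4 (-1.60 at 2 h), which is not among the 75 but in the list added after the table was seen. VPS60 stood at 80.8 and 112 RPKM at 0 h and 19.3 and 23.0 RPKM at 4 h (-2.13, SE 0.10, limma adjusted p = 1.7e-08). VPS2A and VPS46 were lower by 1.70 and 1.68 on the log2 scale at 4 h. VPS22, another ESCRT subunit, ended higher, from 20.3 and 22.3 RPKM at 0 h to 74.7 and 85.1 RPKM at 48 h (1.86, limma adjusted p = 1.4e-09).

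COG, the tether of the Golgi, took another course: all 8 subunits were called higher at 24 h, where 14.8% of all genes were. Their median log2 change was 1.16, against 0.29 over all genes. After centring, 1 of the 8 remained 2-fold (6.98% of all genes). COG7 stood at 3.21 and 3.34 RPKM at 0 h and 13.5 and 11.3 RPKM at 24 h (1.64, limma adjusted p = 6.0e-08). DRP5B, a dynamin of plastid division in land plants, was higher at 2 h (4.96 and 2.23 RPKM at 0 h, 14.2 and 12.3 RPKM at 2 h, 1.70). A further list of 28 genes, added after the table was seen because COPI and VPS descriptions carry other words, held 8 COPI coat genes. At 24 h, 0 of these 8 were lower (6.39% of all genes) and 2 higher (14.8%), with a median of 0.88. After centring 0 were higher at 24 h (6.98%). At 48 h all 8 were below their 0 h level, with a median of -0.31, and 4 were lower by adjusted p alone (33.2% of all genes), of which 0 were 2-fold, or 1 after centring. The retromer gene VPS5A, which recycles cargo from endosomes, went from 5.50 and 6.15 RPKM at 0 h to 41.3 and 54.4 RPKM at 48 h (2.83, SE 0.15, limma adjusted p = 2.8e-09). Its 48 h columns lie far above those of 0 h.

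**Figure D5:**
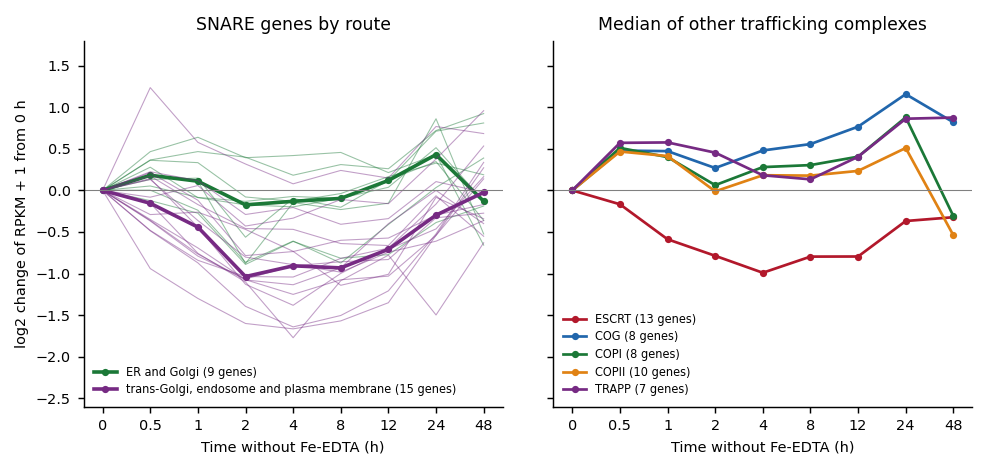
Median log2 change against 0 h (y axis) over time (x axis, hours) of SNAREs grouped by the membranes they serve, and of ESCRT, COG, COPI, COPII and TRAPP genes. The late-route SNAREs reach -1.04 at 2 h and ESCRT -0.99 at 4 h, while the SNAREs between endoplasmic reticulum and Golgi stay near -0.17 at 2 h and COG reaches 1.16 at 24 h.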

How the data were processed

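One deposited table gives 17301 transcripts in 18 columns, 2 per time; 0 columns of values went unused. The authors' values are RPKM, read from the values because the header names no unit. Bowtie was the aligner, per the submitters' processing notes. Which version, genome build and counting tool were used is not given in the sources used here. The 2 columns of a time are biological duplicates per the series design text, although 1 sample is registered per time, so p-values reflect no more than the spread of such columns.

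Members and lists were chosen with earlier results of these data known. The 13077 genes that reached 1 RPKM at 3 or more times were tested with limma-trend (limma 3.58.1, R 4.3.3) on log2(RPKM + 1), on a time factor plus a block for duplicate number (8 residual degrees of freedom), and Benjamini-Hochberg adjustment over all genes tested for each comparison. The duplicate numbers come from the column names. Differences between duplicates correlated between times at 0.31 to 0.73 over 36 pairs of times. On data simulated for 48 h against 0 h, 177 of 200 genes changed by 1.5 on the log2 scale were recovered, with 5 false calls, among 13077 genes. The simulated columns varied independently, without the shared duplicate differences of the real columns. These figures therefore do not give the error rate of the real calls, least of all of those near 2-fold. Reads and lengths were recovered from the values for 95.7% of transcripts (median 2274 bases) in Python 3.11.15 (pandas 2.3.3, numpy 2.4.6), and floors are at 95% confidence and cover counting error only. Figures were drawn with matplotlib 3.10.9.

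Named by rule were, in each role, up to 4 called genes with the largest change, the 2 with the highest mean and any gene alone in its direction at a time, and up to 3 called genes in each direction among other trafficking genes. Further members are described because they were called or complete a family; they, the routes and VPS5A were chosen after their values were seen. Alternatives were pseudocounts of 0.1 and 5, no filter or 5 RPKM, median centring, no block, an adjusted p below 0.01, no fold minimum and leaving out each column. No sequence is printed.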

Additional observations from a re-analysis of the deposited data

How the results depend on the processing

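Most counts of the 45 genes were unchanged or within 1.5 times of their value. Direction was checked for the called genes named by rule, each at the time of its largest called change, and was kept under every setting. Against 0 h, counts were within 1.5 times at an adjusted p below 0.01, without a filter, with a filter of 5 RPKM and without the replicate block. With no fold minimum, the counts from 0.5 to 48 h, in order of time, were 11, 8, 5, 4, 4, 5, 14 and 14 higher and 9, 18, 29, 28, 27, 25, 15 and 14 lower. For steps between neighbouring times they were 4, 7, 6, 30 and 16 higher from 2 to 4 h on, and 16, 25, 4, 2, 1 and 13 lower in the steps ending at 1, 2, 4, 8, 24 and 48 h. A pseudocount of 5 gave 1, 0, 0 and 0 higher at 0.5, 1, 2 and 24 h and 5, 4 and 3 lower at 2, 8 and 12 h. A pseudocount of 0.1 gave 3, 1, 2, 2, 4 and 7 higher at 2, 4, 8, 12, 24 and 48 h and 2 lower at 48 h. Median centring gave 1, 0, 1, 2 and 1 higher at 1, 2, 8, 12 and 24 h and 2, 4, 3, 3 and 2 lower at 0.5, 1, 8, 12 and 48 h. The RABC2 change at 1 h was 0.59 with a pseudocount of 5 and 0.95 after centring, under the 2-fold limit. The cause of these shifts was not tested. Against 0 h, shares of all genes under an alternative setting are given above for median centring and no fold minimum only. The other counts in this section, those without 1 column included, therefore lack a background.

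The single calls in the steps from 0.5 to 1 h, 2 to 4 h and 4 to 8 h each became 0 at an adjusted p below 0.01, without a filter and without the replicate block. With a pseudocount of 0.1, the step from 0.5 to 1 h gave 0 lower, that from 1 to 2 h 1 lower, that from 2 to 4 h 1 higher and that from 24 to 48 h 4 higher. With 5, the steps from 2 to 4 h, 4 to 8 h and 12 to 24 h gave 0, 0 and 0, and 24 to 48 h 1 lower. Centring gave 0 lower from 2 to 4 h, 0 higher and 1 lower from 12 to 24 h, and 5 higher and 2 lower from 24 to 48 h. A filter of 5 RPKM gave 1 higher from 12 to 24 h and 2 lower from 24 to 48 h.

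Leaving out 1 column at a time gave 1 to 2 lower genes at 0.5 h, 1 to 2 higher at 1 h, 0 to 1 higher and 7 to 12 lower at 2 h, 0 to 1 higher and 4 to 8 lower at 8 h, 1 to 2 higher and 3 to 7 lower at 12 h, and 2 to 8 higher and 1 to 2 lower at 48 h. For steps it gave 0 to 1 lower from 0.5 to 1 h, from 1 to 2 h and from 2 to 4 h, 0 to 1 higher from 4 to 8 h, 0 to 2 higher and 0 to 1 lower from 12 to 24 h, and 2 to 4 lower from 24 to 48 h. A change over the 9 times was found in 45 genes, or 44 to 45 without 1 column. The limits are 2 columns per time, a scale that compresses low levels, many calls near 2-fold and 0 h columns that enter every comparison with 0 h.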
